A study of Homo sapiens with 12 samples.

Results

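The zinc finger genes considered here were the genes of chromosome 19 with a symbol made of ZNF, a number and at most 1 further letter. They were taken from the deposited gene count table by that symbol pattern and by the first chromosome listed for the gene. The rule itself uses no measured values, but it was chosen with earlier results of these data known. The rule found 263 genes among 52859 genes of the table, between 2819868 and 58489533 of chromosome 19 (hg38 coordinates throughout). Another 283 genes of the same symbol pattern lay on other chromosomes. The RNA came from MDA-MB-231, a human triple-negative breast cancer cell line with a mesenchymal-like character. Cells were transfected with 20 nM of a locked nucleic acid oligonucleotide (LNA), a chemically stabilised antisense strand that pairs with a chosen RNA, and were harvested after 2 days. The 4 groups of 3 libraries received an LNA named mtAsn-1 or mtAsn-2, both against the mitochondrial tRNA of asparagine, an LNA named mtLys against the mitochondrial tRNA of lysine, or a control LNA. All groups shared the cell line, the oligonucleotide chemistry, the dose and the lipid transfection (Lipofectamine 2000), so no untransfected cells stand behind any value.

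Zinc finger proteins of this family carry tandem C2H2 fingers, small folds held by zinc that read DNA. Most of those encoded on chromosome 19 also carry a KRAB box, which recruits the scaffold protein TRIM28 (KAP1). TRIM28 brings the histone H3 lysine 9 methyltransferase SETDB1, heterochromatin protein 1 and histone deacetylases, and through them many of these proteins silence transposable elements. The genes stand in tandem clusters that grew by duplication, and their own bodies are among the targets of the same silencing, through ZNF274.

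Library totals ran from 17978825 to 37708993 counted reads. VIM reached 2950 to 3880 CPM (counts per 1000000 reads of the scaled library) and AXL 803 to 1090 CPM, CD44 562 to 794 CPM and CAV1 588 to 877 CPM, while ESR1, PGR and CDH1 stayed at or below 0.523 CPM in every library, EPCAM at 3.45 to 6.21 CPM and ERBB2 at 89.4 to 120.0 CPM. Of the markers of other cell types, CD3E, CDH5 and DCN had at most 1 read in a library, and PTPRC at most 10 reads. PECAM1 averaged 16.1 CPM in mtAsn-1 cells, 10.8 CPM in mtAsn-2 cells, 17.2 CPM in mtLys cells and 11.9 CPM in control cells, and PDGFRB lay between 6.78 and 12.2 CPM; the part of such levels in the results was not tested. The targeted tRNA genes could not be checked from these libraries, which are not made for RNA of tRNA size: the gene of mitochondrial tRNA-Asn had 1 to 6 reads per library, and that of tRNA-Lys averaged 7.74 CPM in mtLys cells and 6.20 CPM in control cells. No label says that the 3 libraries of a group came from separate cultures, so every p-value below rests on library-to-library spread that may be purely technical.

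Of the 263 genes, 12 had no read in any library, 29 had between 1 and 91 reads over all 12 libraries and were not tested, and 222 passed the filter on low counts (at least about 10 reads in 3 libraries). Of these 222, 216 had 10 reads or more in every library, and 2 reached this in 1 group alone. ZNF536, a factor of neuronal differentiation, was among those with no read. Together the 263 genes took 0.259% ± 0.00296 of all counts in mtAsn-1 cells, 0.328% ± 0.00318 in mtAsn-2 cells, 0.259% ± 0.00177 in mtLys cells and 0.302% ± 0.00247 in control cells (SD, n = 3 each). Per kilobase of exon, ZNF358 was the most abundant, with a mean of 25.2 CPM per kb over the 12 libraries. Next came ZNF428 at 21.4, ZNF581 at 19.4, ZNF146 at 18.9 and ZNF580 at 16.4 CPM per kb. None of these 5 had a KRAB box in its coding sequence, whereas ZNF274, which has one, stood close to them at 15.7 CPM per kb. ZNF91 stood at 0.562 CPM per kb.

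The summed level of the family differed between the groups. The 263 genes summed to 2642 ± 18.4 CPM in mtAsn-1 cells, 3138 ± 20.8 CPM in mtAsn-2 cells, 2633 ± 23.4 CPM in mtLys cells and 3044 ± 31.1 CPM in control cells (SD, n = 3 each). The single libraries gave 2634, 2629 and 2663 CPM in mtAsn-1 cells, 3149, 3151 and 3114 CPM in mtAsn-2 cells, 2642, 2606 and 2650 CPM in mtLys cells, and 3042, 3076 and 3014 CPM in control cells. The 3 libraries with mtAsn-2 thus all lay above those with control, and all 6 libraries with mtAsn-1 or mtLys lay below them, with no overlap between the mtAsn-1 and mtLys libraries on one side and the others. ZNF genes of other chromosomes summed to 5329 ± 72.0 CPM in mtAsn-1 cells, 5281 ± 13.3 CPM in mtAsn-2 cells, 5255 ± 34.9 CPM in mtLys cells and 5755 ± 42.4 CPM in control cells (SD, n = 3 each), so that there the mtAsn-2 libraries lay below control. These are levels of RNA in bulk samples, in which fewer cells that express a gene and less of its RNA per cell cannot be told apart.

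**Figure D1:**
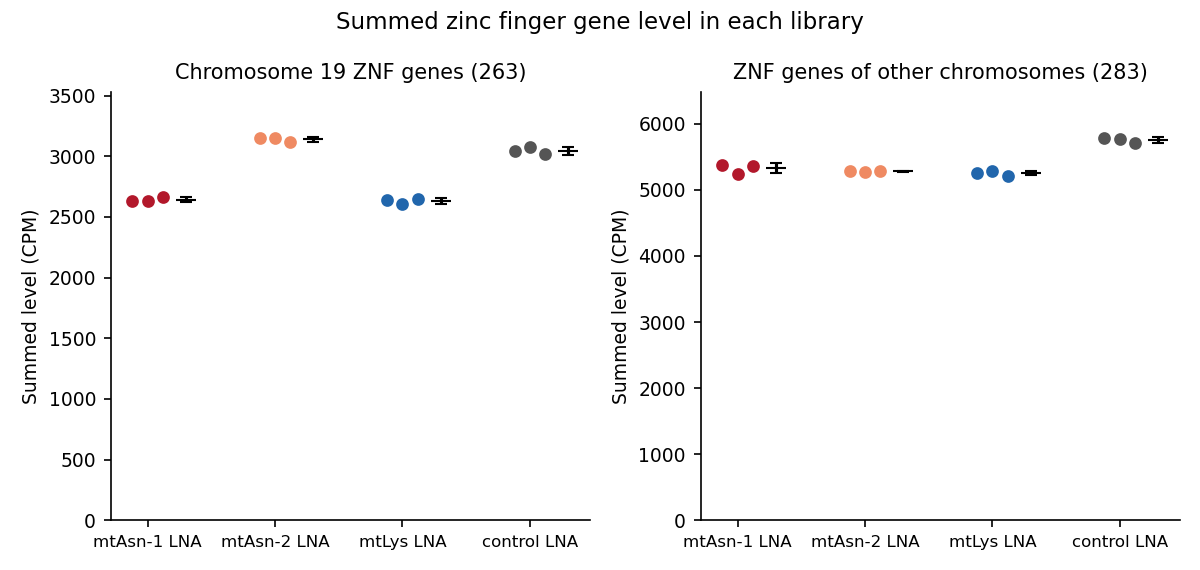
Summed level in CPM (counts per 1000000 reads, vertical axis) of the 263 chromosome 19 ZNF genes (left) and of the 283 ZNF genes of other chromosomes (right) in each of 12 libraries, as points by LNA group; black marks give the mean and SD of 3 libraries. On the left the mtAsn-1 and mtLys libraries sit between 2606 and 2663 CPM, below the control libraries, and the mtAsn-2 libraries between 3114 and 3151 CPM, above them.

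The first question was how each tRNA LNA changed these genes relative to the control LNA. With the mtAsn-1 LNA, 98 of the 222 tested genes fell and 7 rose, at an adjusted p below 0.05 by edgeR's quasi-likelihood test with Benjamini-Hochberg adjustment over 16051 genes. Over all tested genes, 24.2 percent fell and 24.3 percent rose. The median log2 fold change of the 222 genes was -0.22, that of all tested genes -0.0035, and 166 of the 222 had a negative value. Of the 225 tested ZNF genes of other chromosomes, 86 fell and 28 rose, with a median of -0.13. Of the 881 other tested genes of chromosome 19, 242 fell and 203 rose, with a median of -0.03. Changes were small in size: 7 of the genes that fell did so by 2-fold or more, and none of the 7 that rose did.

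ZNF844, ZNF345 and ZNF121 were among the largest falls with the mtAsn-1 LNA. ZNF844, a KRAB zinc finger gene of 6 fingers at chr19:12064731-12081565, had 8.87, 10.7 and 10.2 CPM in mtAsn-1 cells, against 25.8, 30.0 and 27.2 CPM in control cells. It fell by 1.49 ± 0.08 on the log2 scale (SE; edgeR adjusted p = 2.88e-14). ZNF345, at chr19:36850350-36893218 and without a KRAB box, had 2.07, 2.12 and 2.34 CPM in mtAsn-1 cells, against 7.25, 6.30 and 6.74 CPM in control cells, a log2 fold change of -1.62 ± 0.14 (SE; edgeR adjusted p = 9.43e-11). Every mtAsn-1 library lay far below every control library in both genes. ZNF121, at chr19:9560337-9584544 and also without a KRAB box, was the most abundant of these, with 35.1, 38.7 and 39.3 CPM in mtAsn-1 cells and 79.96, 81.1 and 69.8 CPM in control cells. Its log2 fold change was -1.03 ± 0.06 (SE; edgeR adjusted p = 3.27e-13), and its groups did not overlap. ZNF738 fell by 1.28, ZNF460 by 1.17 and ZNF829 by 0.87 on the log2 scale, and their libraries were also separate from control. Exons of ZNF829 overlap those of ZNF568 on the opposite strand, and the library kit used does not record strand, so reads from the overlapping stretches cannot be told apart. Below the level of abundance at which genes were named by rule, ZNF540 and ZNF442 completed the 7 falls of 2-fold or more; they were picked out after their values were seen. ZNF540 averaged 0.190 CPM in mtAsn-1 cells and 0.897 CPM in control cells, and ZNF442 averaged 0.793 CPM in mtAsn-1 cells and 1.89 CPM in control cells; both have exons that overlap a neighbour on the same strand.

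The 7 rises with the mtAsn-1 LNA were ZNF83, ZNF284, ZNF93, ZNF524, ZNF544, ZNF792 and ZNF266. ZNF83, at chr19:52612364-52690581, had 36.9, 44.5 and 35.9 CPM in mtAsn-1 cells, against 22.8, 22.6 and 24.3 CPM in control cells, a log2 fold change of 0.75 ± 0.08 (SE; edgeR adjusted p = 1.94e-08). ZNF284, at chr19:44072137-44089613, had 11.97, 11.8 and 11.8 CPM in mtAsn-1 cells, against 7.99, 6.82 and 7.27 CPM in control cells, a log2 fold change of 0.69 ± 0.09 (SE; edgeR adjusted p = 6.71e-07). The groups did not overlap in either gene, but 43.6% of the 50-base words of the ZNF284 transcript also occur in transcripts of other annotated genes. Whether these are gene models of the same locus or copies elsewhere was not separated, so its count may depend on how shared reads were assigned. ZNF93, whose protein represses some LINE-1 elements, had 7.74, 6.06 and 7.40 CPM in mtAsn-1 cells, against 5.57, 5.26 and 5.35 CPM in control cells. Its log2 fold change was 0.40 ± 0.11 (SE, edgeR adjusted p = 0.00375). ZNF524, ZNF544, ZNF792 and ZNF266 rose by 0.34, 0.30, 0.24 and 0.18 on the log2 scale. The rise of ZNF792 was not called without control replicate 2 (adjusted p = 0.14) or without mtAsn-1 replicate 3 (adjusted p = 0.0681), and ZNF544 overlaps an exon of an uncharacterised gene on the opposite strand.

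With the mtLys LNA, falls outnumbered rises as well. The 3 comparisons with control share its libraries and are not independent of each other. Against these libraries, 104 of the 222 tested genes fell and 11 rose, beside 23.9 percent of all tested genes that fell and 24.6 percent that rose. The median log2 fold change was -0.20, with a negative value for 171 genes. Among ZNF genes of other chromosomes, 93 fell and 17 rose (median -0.15), and among the other chromosome 19 genes, 271 fell and 179 rose (median -0.07). ZNF844 had 8.44, 8.38 and 9.16 CPM in mtLys cells, against the control values above, a log2 fold change of -1.68 ± 0.08 (SE; edgeR adjusted p = 6.6e-16). ZNF121 had 34.4, 38.6 and 34.1 CPM in mtLys cells, and a log2 fold change of -1.11 ± 0.06 (SE; edgeR adjusted p = 3.47e-14). In both genes every mtLys library lay below every control library. ZNF345, ZNF460, ZNF738 and ZNF682 fell by 1.42, 1.26, 1.19 and 0.88 on the log2 scale. The largest log2 fold change of any tested gene of the family belonged to ZNF540, at -2.98, with 0.118 CPM on average in mtLys cells and 0.897 CPM in control cells. ZNF83 had 39.6, 34.9 and 39.8 CPM in mtLys cells, a log2 fold change of 0.72 ± 0.07 (SE; edgeR adjusted p = 2.06e-08), the largest rise of the 11. ZNF284 rose by 0.71, ZNF93 by 0.56, ZNF266 by 0.34, ZNF576 by 0.34 and ZNF792 by 0.29 on the log2 scale.

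With the mtAsn-2 LNA the calls went in both directions. Against control, 59 of the 222 genes rose and 37 fell, beside 24.1 percent of all tested genes that rose and 27 percent that fell. The members' share that rose, 26.6%, was thus near that of all genes, and the share that fell, 16.7%, was smaller; the median log2 fold change was 0.06. Of the ZNF genes of other chromosomes 54 rose and 55 fell (median -0.05), and of the other chromosome 19 genes 240 rose and 230 fell (median 0.02). The falls held the larger changes, with 4 of 2-fold or more against none among the rises. ZNF702P, a pseudogene at chr19:52968251-52993531, had 4.05, 4.41 and 4.17 CPM in mtAsn-2 cells, against 17.9, 19.01 and 18.01 CPM in control cells, a log2 fold change of -2.12 ± 0.09 (SE; edgeR adjusted p = 1.72e-17). ZNF701, a KRAB zinc finger gene at chr19:52570273-52627269, had 4.05, 4.25 and 3.65 CPM in mtAsn-2 cells, against 11.7, 13.3 and 11.9 CPM in control cells, a log2 fold change of -1.63 ± 0.10 (SE; edgeR adjusted p = 3.92e-14). ZNF766, at chr19:52269251-52296046, had 8.42, 7.44 and 7.82 CPM in mtAsn-2 cells, against 16.3, 14.1 and 16.7 CPM in control cells, a log2 fold change of -0.98 ± 0.09 (SE; edgeR adjusted p = 5.25e-10). These genes all had separate groups and lie in the same cluster, and 12.1% of the 50-base words of ZNF702P occur in other transcripts.

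ZNF137P, a pseudogene inside ZNF701 whose exons overlap its own and which was picked out after its values were seen, was the remaining member of that cluster that fell by 2-fold or more, to 0.506 CPM in mtAsn-2 cells, against 2.12 CPM in control cells. Of the other tested genes between ZNF766 and ZNF702P, ZNF480, ZNF880, ZNF808, ZNF611, ZNF28, ZNF468 and ZNF320 rose, by 0.19 to 0.65 on the log2 scale, while ZNF528 fell by 0.25. Exons of ZNF880 and ZNF528 overlap on the same strand. ZNF610, ZNF83, ZNF600, ZNF888 and ZNF816 were not called, at log2 fold changes of 0.02 to 0.27. These neighbours were likewise picked out after their values were seen, and 99.2% of the 50-base words of ZNF468 and 99.5% of those of ZNF320 occur in other transcripts. ZNF345, in another cluster, fell by 1.44, ZNF460 by 0.79 and ZNF587B, with 20.5% of its words shared, by 0.78 on the log2 scale. The largest rise belonged to ZNF284, which had 13.5, 13.96 and 14.3 CPM in mtAsn-2 cells, a log2 fold change of 0.92 ± 0.09 (SE; edgeR adjusted p = 7.88e-10). ZNF93 had 8.95, 8.84 and 9.83 CPM in mtAsn-2 cells, a log2 fold change of 0.77 ± 0.10 (SE; edgeR adjusted p = 2.55e-07). Both had every mtAsn-2 library above every control library. ZNF221, ZNF583, ZNF724 and ZNF418 rose by 0.71, 0.70, 0.69 and 0.68 on the log2 scale; exons of ZNF221 overlap ZNF155, and 55.1% of the 50-base words of ZNF724 occur in other transcripts.

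**Figure D2:**
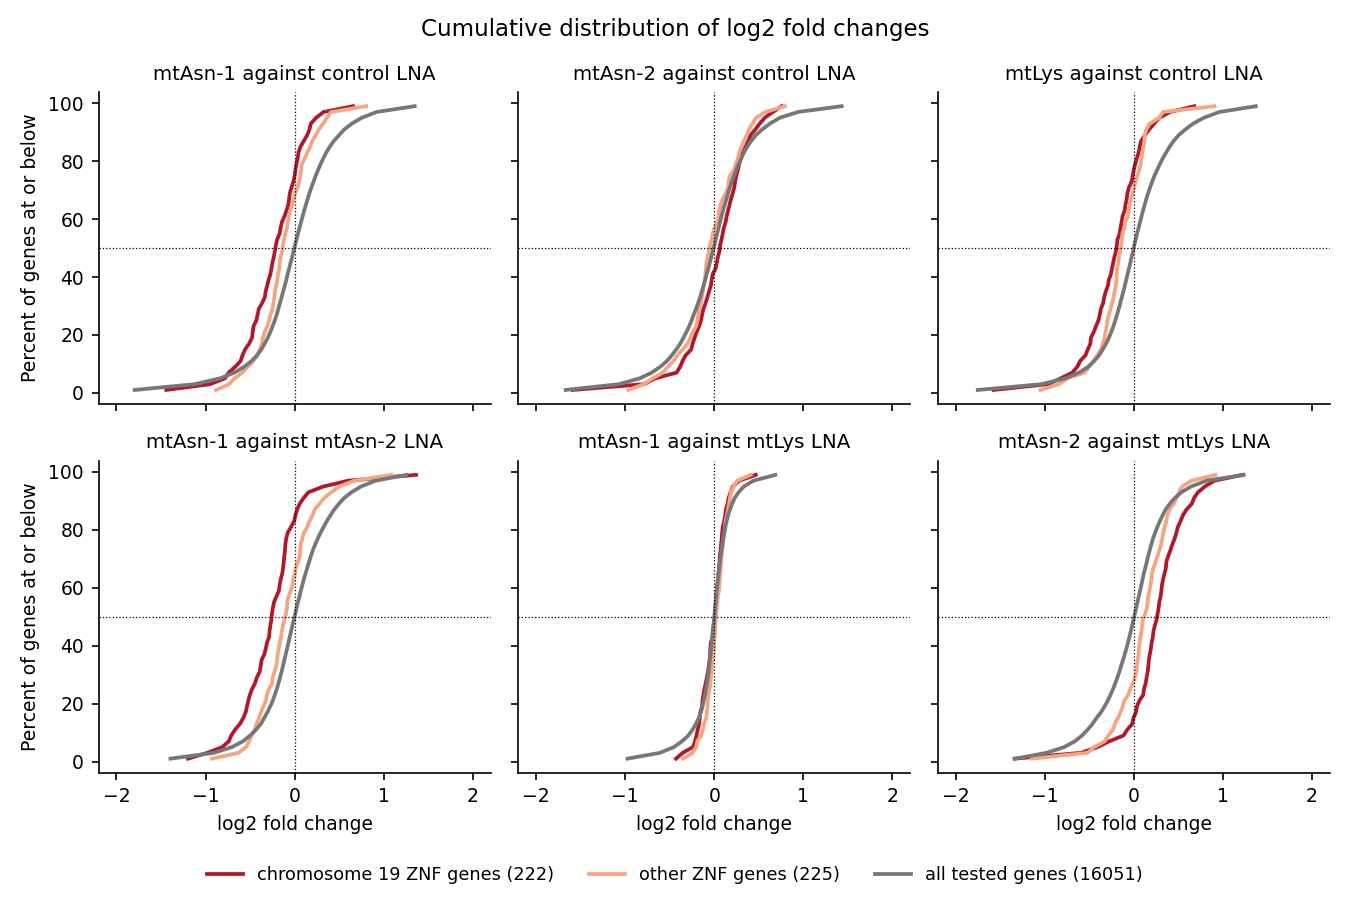
Cumulative percent of genes (vertical axis) at or below each log2 fold change (horizontal axis, 1st to 99th percentile) for the 222 tested chromosome 19 ZNF genes, the 225 tested ZNF genes of other chromosomes and all 16051 tested genes, in the 6 comparisons between LNA groups. At its median the chromosome 19 curve lies left of all genes for mtAsn-1 and mtLys against control (medians -0.22 and -0.20) and right of them for mtAsn-2 against mtLys (median 0.26); the curves cross near their ends.

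The tRNA LNAs were also compared with each other, where the 2 comparisons that involve mtAsn-2 share its libraries. Between the LNAs against tRNA-Asn, 111 of the 222 genes were lower and 11 higher with mtAsn-1 than with mtAsn-2, beside 21.9 percent of all tested genes lower and 24.6 percent higher. The median log2 fold change was -0.26, against -0.10 for the 225 ZNF genes of other chromosomes. Between mtAsn-2 and mtLys, 129 of the 222 genes were higher and 12 lower with mtAsn-2, beside 22.9 percent higher and 25.7 percent lower over all tested genes, with a median log2 fold change of 0.26 and of 0.11 for the ZNF genes of other chromosomes. Between mtAsn-1 and mtLys, which differ in their tRNA target, edgeR called no gene of the family higher and 2 lower with mtAsn-1, beside 2.12 percent and 3.14 percent of all tested genes. At an unadjusted p below 0.05 by edgeR, 10 were higher and 12 lower with mtAsn-1, and DESeq2 called 0 higher and 2 lower. The matching shares of all tested genes are not given here, so these counts cannot be set against them. The 2 lower genes were ZNF702P, with log2 fold change -0.36, and ZNF114, with -0.56, whose groups overlap, which has the antisense gene ZNF114-AS1 on its opposite strand, and which was picked out after its values were seen. The count of 2 became 1 without control replicate 3, without mtLys replicate 2 or 3, or without any single mtAsn-1 or mtAsn-2 library, and 1 gene was called higher without mtAsn-1 replicate 1. Across all 4 groups, 168 of the 222 genes (75.7%) differed, beside 71 percent of all tested genes.

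ZNF850, a KRAB zinc finger gene with 29 fingers at chr19:36743478-36772814, had the largest difference between the LNAs against tRNA-Asn among the genes named by rule that were lower with mtAsn-1. It had 8.52, 7.66 and 7.80 CPM in mtAsn-1 cells, against 17.8, 18.8 and 17.8 CPM in mtAsn-2 cells, a log2 fold change of -1.18 ± 0.09 (SE; edgeR adjusted p = 3.44e-12). With mtLys it had 8.01, 7.59 and 6.70 CPM, and with control 12.4, 12.5 and 10.9 CPM. The order of its levels was thus mtAsn-2 above control above mtAsn-1 and mtLys, and the mtAsn-1 and mtLys libraries overlap; relative to control its log2 fold change was -0.59 for the mtAsn-1 LNA, 0.59 for mtAsn-2 and -0.68 for mtLys, called in each case. In the pseudogene ZNF542P, mtAsn-2 also lay above control and the others below it, with means of 4.77 CPM in mtAsn-1 cells, 10.4 CPM in mtAsn-2 cells, 5.51 CPM in mtLys cells and 6.62 CPM in control cells, and its exons overlap ZSCAN5A on the opposite strand. ZNF121 had 69.3, 75.4 and 71.7 CPM in mtAsn-2 cells, which overlaps control, and its log2 fold change between mtAsn-2 and mtLys was 1.01 ± 0.06 (SE; edgeR adjusted p = 8.55e-14). ZNF701 was instead lowest with mtAsn-2, at 3.65 to 4.25 CPM. It had 11.8, 11.3 and 11.1 CPM in mtAsn-1 cells and 10.5, 10.99 and 12.1 CPM in mtLys cells, groups that overlap. Its control mean was 12.3 CPM, above the means of all 3 tRNA LNA groups. ZNF702P and ZNF766 were likewise lower with mtAsn-2 than with mtLys, at log2 fold changes of -1.81 and -0.78.

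**Figure D3:**
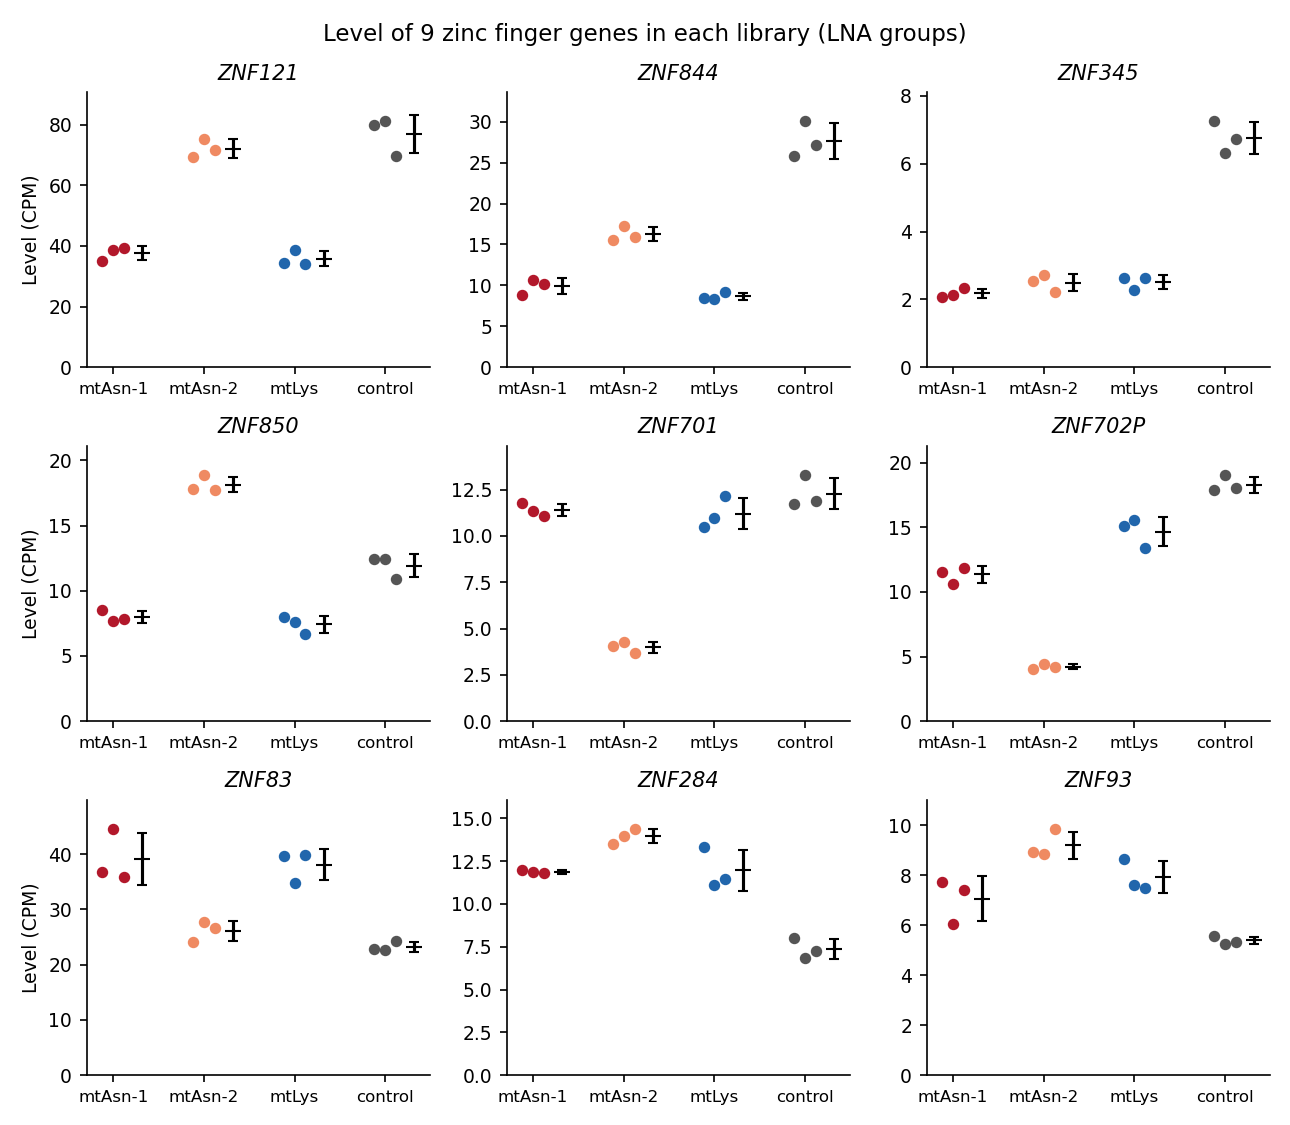
Level in CPM (counts per 1000000 reads, vertical axis, from 0) of 9 zinc finger genes in each of the 12 libraries, as points by LNA group, with the mean and SD of 3 libraries in black. ZNF121 is low with mtAsn-1 and mtLys, ZNF844 and ZNF345 are below control with all 3 tRNA LNAs, ZNF701 and ZNF702P are lowest with mtAsn-2 at 3.65 to 4.41 CPM, and ZNF284 and ZNF93 are above control with all 3 tRNA LNAs.

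The promoters of 6 of these genes are shown because the genes moved in different ways: ZNF121 fell with mtAsn-1 and mtLys, ZNF460 with all 3 tRNA LNAs, ZNF766 and ZNF701 by most with mtAsn-2, ZNF850 rose with mtAsn-2 and fell with the others, and ZNF93 rose with all 3. The sequences are RefSeq promoters of GRCh38.p14, from 250 bases before to 50 bases after the annotated start, written in the direction of the gene; 216 of the 263 genes had one. They lie at chr19:9584455-9584754 (minus strand) for ZNF121, chr19:57279732-57280031 (plus) for ZNF460, chr19:52269337-52269636 (plus) for ZNF766, chr19:52570037-52570336 (plus) for ZNF701, chr19:36772758-36773057 (minus) for ZNF850 and chr19:19900696-19900995 (plus) for ZNF93. Capitals mark matches, on either strand, to CCGGAAGT (an ETS factor motif), TGACGTCA (the cyclic AMP response element), TGATGNAAT (the C/EBP-ATF response element), CTCGCGAG and AANATGGC (a YY1 motif); the motif GGGCGG was counted but is not marked, and no motif contains another.
ZNF121: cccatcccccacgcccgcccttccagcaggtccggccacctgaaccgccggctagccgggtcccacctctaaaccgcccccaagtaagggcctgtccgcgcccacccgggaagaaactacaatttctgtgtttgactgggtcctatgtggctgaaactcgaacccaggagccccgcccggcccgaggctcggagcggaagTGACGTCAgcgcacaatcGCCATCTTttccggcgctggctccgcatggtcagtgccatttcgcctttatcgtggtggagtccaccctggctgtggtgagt
ZNF460: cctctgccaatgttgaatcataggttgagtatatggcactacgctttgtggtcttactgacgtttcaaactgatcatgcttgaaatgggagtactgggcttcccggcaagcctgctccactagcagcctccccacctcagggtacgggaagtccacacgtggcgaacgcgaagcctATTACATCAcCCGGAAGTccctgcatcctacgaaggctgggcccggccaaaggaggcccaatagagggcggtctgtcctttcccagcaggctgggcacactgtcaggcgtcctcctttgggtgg
ZNF766: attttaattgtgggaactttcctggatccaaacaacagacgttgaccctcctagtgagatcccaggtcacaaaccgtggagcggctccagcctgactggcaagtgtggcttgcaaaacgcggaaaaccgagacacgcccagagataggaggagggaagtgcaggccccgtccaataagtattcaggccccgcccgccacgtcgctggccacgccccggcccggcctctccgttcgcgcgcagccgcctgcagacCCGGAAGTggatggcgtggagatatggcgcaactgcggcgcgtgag
ZNF701: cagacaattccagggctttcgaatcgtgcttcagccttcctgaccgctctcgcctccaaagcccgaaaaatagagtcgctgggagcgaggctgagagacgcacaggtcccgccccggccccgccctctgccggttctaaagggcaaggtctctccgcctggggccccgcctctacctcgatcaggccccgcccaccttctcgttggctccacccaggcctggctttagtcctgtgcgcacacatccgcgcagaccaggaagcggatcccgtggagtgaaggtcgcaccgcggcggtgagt
ZNF850: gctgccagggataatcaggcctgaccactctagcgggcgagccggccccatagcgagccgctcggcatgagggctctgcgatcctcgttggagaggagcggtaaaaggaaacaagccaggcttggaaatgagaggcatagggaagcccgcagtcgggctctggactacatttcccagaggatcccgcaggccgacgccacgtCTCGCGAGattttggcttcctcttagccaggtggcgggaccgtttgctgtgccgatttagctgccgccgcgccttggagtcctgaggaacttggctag
ZNF93: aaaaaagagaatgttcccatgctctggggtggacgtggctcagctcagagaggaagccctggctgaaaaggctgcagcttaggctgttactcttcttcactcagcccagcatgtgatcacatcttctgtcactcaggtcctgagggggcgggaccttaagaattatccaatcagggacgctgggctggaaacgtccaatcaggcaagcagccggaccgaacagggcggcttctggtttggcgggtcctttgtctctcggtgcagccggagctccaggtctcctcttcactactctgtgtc

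The 6 windows differ in what they hold. That of ZNF121 has a TGACGTCA and a reverse-strand AANATGGC, that of ZNF460 a reverse-strand TGATGNAAT next to a CCGGAAGT, that of ZNF766 a CCGGAAGT and that of ZNF850 a CTCGCGAG, while those of ZNF701 and ZNF93 hold none of the 5 marked motifs. Over the 216 promoters, CCGGAAGT occurred in 20.8%, against 14.2% of the 211 promoters of ZNF genes on other chromosomes and 4.14% of 35116 RefSeq promoters. AANATGGC occurred in 14.4%, against 9.0% of the ZNF promoters of other chromosomes and 6.58% of all RefSeq promoters. GGGCGG occurred in 67.6%, against 59.7% and 45.0% in the same order. TGACGTCA was found in 3.24% of the 216, against 4.3% and 1.85%, and TGATGNAAT in 0.926%, against 0.474% and 0.991%. CTCGCGAG was found in 0.926%, against 1.42% and 1.02% in the same order. The ZNF sets were reduced to 1 promoter per gene, the set of all RefSeq promoters was not. Counts for genes with and without CCGGAAGT were as follows. With mtAsn-1, 21 of 42 tested genes that have it fell and 0 rose, against 65 of 147 that fell and 6 that rose among those without it. Their median log2 fold changes were -0.23 and -0.22. Beside these counts, 24.2 percent of all tested genes fell and 24.3 percent rose.

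Among the members with a documented role, ZNF274, which recruits SETDB1 to the 3′ ends of zinc finger genes, rose with mtAsn-2, to 67.7, 68.8 and 68.0 CPM, against 51.3, 49.8 and 55.1 CPM in control cells (log2 fold change 0.39 ± 0.05, SE; edgeR adjusted p = 4.14e-08). With mtAsn-1 it had 54.6, 54.6 and 52.7 CPM, which overlaps control (log2 fold change 0.06 ± 0.05, SE). With mtLys its call at 0.13 was lost without any of 4 single libraries, control replicates 1 and 2 and mtLys replicates 1 and 3, at adjusted p = 0.0517 to 0.12. ZNF331, an imprinted gene, had 33.3, 32.2 and 33.4 CPM in mtAsn-2 cells, against 23.8, 23.2 and 21.4 CPM in control cells (log2 fold change 0.53 ± 0.06, SE; edgeR adjusted p = 1.07e-08). Its log2 fold changes with mtAsn-1 and mtLys were 0.00 and 0.07, neither of them called, and its exons overlap the pseudogene VN1R103P. ZNF91, a repressor of SVA elements, averaged 10.4 CPM in mtAsn-1 cells and 12.5 CPM in control cells and fell by 0.27 ± 0.08 on the log2 scale (SE; edgeR adjusted p = 0.00687); with mtAsn-2 and mtLys its values were -0.13 and -0.13, not called.

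ZNF224, a KRAB repressor first described on the aldolase A promoter, fell by 0.44 with mtAsn-1 and 0.51 with mtLys on the log2 scale. Its call at -0.20 with mtAsn-2 was lost by DESeq2 (adjusted p = 0.103), with thinned libraries (adjusted p = 0.309) and with no filter on low counts (adjusted p = 0.104). The call was also lost with the replicate number as a block (edgeR adjusted p = 0.0555). The same held without each of control replicates 1 and 2 and mtAsn-2 replicates 1, 2 and 3 (adjusted p = 0.0601 to 0.208). Its exons overlap an uncharacterised gene on the opposite strand. ZNF146 (OZF), made of fingers alone, had 85.7, 84.0 and 80.2 CPM in mtAsn-2 cells, above the 71.3, 73.0 and 72.7 CPM in control cells, and 64.7, 64.8 and 68.0 CPM in mtLys cells, below them; log2 fold changes were 0.20 and -0.14. With mtAsn-1 the value was -0.05, not called, and the call with mtLys was lost with thinned libraries (adjusted p = 0.181) and without mtLys replicate 1 (adjusted p = 0.0542) or 2 (adjusted p = 0.0522). It overlaps ZNF565 and a further gene on the opposite strand. ZNF675, which binds the signalling protein TRAF6, had log2 fold changes of -0.31, -0.01 and -0.13 with mtAsn-1, mtAsn-2 and mtLys, none called, though the first passed without control replicate 1 (-0.39), mtAsn-1 replicate 1 (-0.41) or mtAsn-2 replicate 1 (-0.31).

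The most abundant genes per kilobase had small changes. ZNF358 averaged 55.0 CPM in mtAsn-1 cells, 49.4 CPM in mtAsn-2 cells, 51.4 CPM in mtLys cells and 57.4 CPM in control cells. Its log2 fold change was -0.22 with mtAsn-2 and -0.16 with mtLys, with overlapping groups. Without control replicate 1 neither was called (adjusted p = 0.0619 and 0.284), and the call with mtLys was also lost by DESeq2 (adjusted p = 0.0665) and without control replicate 3 or mtLys replicate 2 or 3 (adjusted p = 0.0575 to 0.171). ZNF428 and ZNF581 fell by 0.38 and 0.24 with mtLys, and ZNF580 by 0.32 with mtAsn-2. The call of ZNF428 with mtAsn-1, at -0.23, was lost by DESeq2 (adjusted p = 0.0567), with thinned libraries (adjusted p = 0.0664) and without control replicate 1 or 2 or mtAsn-1 replicate 2 or 3 (adjusted p = 0.0841 to 0.239). With mtAsn-2 its value of -0.13 was called only without control replicate 3, at -0.21. The call of ZNF580 with mtLys, at -0.20, was lost without control replicate 1 or mtLys replicate 2 or 3 (adjusted p = 0.0705 to 0.136), and that of ZNF581 with mtLys without control replicate 1 (adjusted p = 0.0659). Exons of ZNF428 overlap SRRM5 on the opposite strand, and 19.5% of the 50-base words of ZNF358 occur in other transcripts. The exons of ZNF581 overlap an uncharacterised gene on the same strand, and 16.1% of its 50-base words occur in other transcripts. ZNF580 lies within the span of ZNF581.

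Position along the chromosome was examined next. A gene whose start lay more than 500 kb beyond the start of the one before it opened a new cluster. This gave 20 clusters, 8 of them with 10 or more tested genes. For comparison, 24.2 percent of all tested genes fell and 24.3 percent rose with mtAsn-1. With mtAsn-2, 27 percent fell and 24.1 percent rose, and with mtLys 23.9 percent fell and 24.6 percent rose. Cluster 10, at 36.2 to 37.8 Mb, held 25 tested genes, of which 16 fell and 0 rose with mtAsn-1 (median log2 fold change -0.36), 1 fell and 7 rose with mtAsn-2 (median 0.09), and 16 fell and 1 rose with mtLys (median -0.35). ZNF345, ZNF829, ZNF540 and ZNF850 belong to it. Cluster 3, at 8.51 to 9.79 Mb with ZNF121 and ZNF266, had 8 falls and 1 rise among 11 tested genes with mtAsn-1, 2 falls and 5 rises with mtAsn-2, and 7 falls and 1 rise with mtLys. Cluster 13, at 43.5 to 44.5 Mb, and cluster 19, at 55.5 to 56.7 Mb, had other values. Their median log2 fold changes were -0.06 in cluster 13 and -0.03 in cluster 19 for the mtAsn-1 LNA, 0.11 and 0.03 when mtAsn-2 was used, and -0.09 and -0.10 when mtLys was used.

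Cluster 20, at 57.2 to 58.5 Mb, was the only one of these 8 with more falls than rises with mtAsn-2, at 11 falls and 7 rises of 41 tested genes. Its share of falls was near the 27 percent of all tested genes, and its share of rises was below their 24.1 percent. With mtAsn-1 it had 22 falls and 1 rise, and with mtLys 23 falls and 2 rises. Cluster 18, at 51.6 to 53.6 Mb with 39 tested genes, held the largest falls with mtAsn-2 described above and yet had 12 rises and 8 falls with that LNA, a median of 0.10. With mtAsn-1 it had 15 falls and 1 rise, the rise being ZNF83, and with mtLys 14 falls and 2 rises. Cluster 6, at 19.7 to 24.1 Mb, held 42 genes, of which 15 were not tested; 10 fell and 1 rose with mtAsn-1, 2 fell and 10 rose with mtAsn-2, and 12 fell and 1 rose with mtLys. Next to it in number, cluster 4, at 11.5 to 12.6 Mb, had 12 falls and 0 rises of 27 tested genes with mtAsn-1, 5 of each with mtAsn-2, and 12 falls and 0 rises with mtLys. Differences between clusters were not tested.

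**Figure D4:**
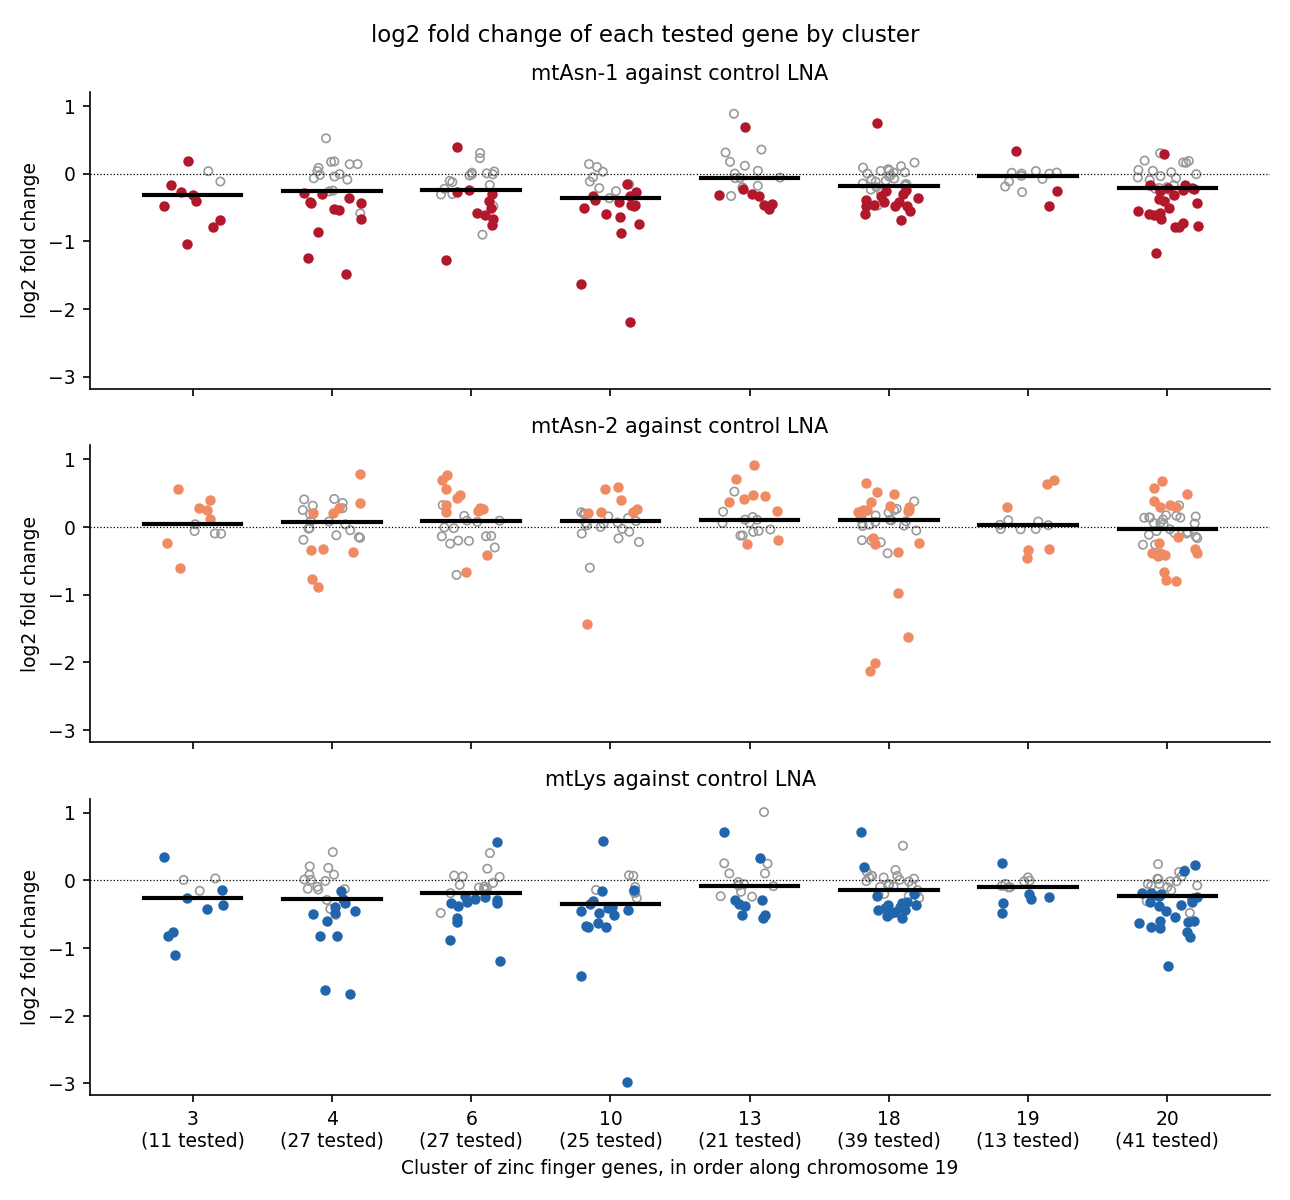
log2 fold change (vertical axis) of each tested gene in the 8 clusters of 10 or more tested genes, in order along chromosome 19, for mtAsn-1, mtAsn-2 and mtLys LNA against control LNA (top to bottom); filled points passed an adjusted p of 0.05, open points did not, and bars are medians. The medians lie between -0.36 and -0.03 for mtAsn-1, between -0.03 and 0.11 for mtAsn-2 and between -0.35 and -0.09 for mtLys.

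The protein sequence translated from GENCODE transcripts, available for 247 of the 263 genes, held a KRAB box pattern in 208 and no such pattern in 39, with a median of 12 C2H2 fingers. Of the 178 tested genes with a KRAB pattern, 85 fell and 5 rose with mtAsn-1, 27 fell and 48 rose with mtAsn-2, and 82 fell and 8 rose with mtLys. Of the 34 tested genes without one, 10 fell and 2 rose with mtAsn-1, 8 fell and 9 rose with mtAsn-2, and 18 fell and 3 rose with mtLys. For all tested genes the shares were 24.2 percent fallen and 24.3 percent risen with mtAsn-1, 27 and 24.1 percent with mtAsn-2, and 23.9 and 24.6 percent with mtLys. With mtAsn-2 the rises of both classes were thus near the share of all genes. The medians with mtAsn-1 were -0.24 for genes with a KRAB pattern and -0.07 for those without, and -0.20 and -0.17 with mtLys; the difference was not tested. By finger number, with mtAsn-1, 27 of 57 genes with up to 9 fingers fell, 36 of 89 with 10 to 14 and 32 of 66 with 15 or more, and across 212 genes Spearman's rho between finger number and log2 fold change was -0.04, a description over genes measured in the same libraries.

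The counts were also read within genes less open to shared reads and within the more abundant genes. Of all tested genes, 24.2 percent fell and 24.3 percent rose with mtAsn-1, 27 and 24.1 percent with mtAsn-2, and 23.9 and 24.6 percent with mtLys. Among the 164 tested genes whose exons overlap no other gene, 73 fell and 6 rose with mtAsn-1, 29 fell and 41 rose with mtAsn-2, and 79 fell and 9 rose with mtLys. The 50-base words were sought only in transcripts of chromosome 19 genes and of genes with zinc finger symbols, so the shares of words are lower bounds. Gene models that cover the same locus were not set apart from copies elsewhere, so a high share need not mean shared reads. Among the 172 genes with under 10% of their words in those other transcripts, 77 fell and 6 rose with mtAsn-1, 30 fell and 49 rose with mtAsn-2, and 83 fell and 10 rose with mtLys. Among the 111 more abundant of the 222 genes, 58 fell and 6 rose with mtAsn-1, 23 fell and 39 rose with mtAsn-2, and 61 fell and 9 rose with mtLys.

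The proteins through which KRAB zinc fingers act were followed with a list of 38 genes, of which 36 were tested. With mtAsn-1, 8 fell and 5 rose, with mtAsn-2, 14 fell and 7 rose, and with mtLys, 11 fell and 6 rose; the median log2 fold change lay between -0.07 and -0.06 in the 3 comparisons. Over all tested genes, 24.2 percent fell and 24.3 percent rose with mtAsn-1, 27 percent and 24.1 percent with mtAsn-2, and 23.9 percent and 24.6 percent with mtLys. TRIM28, the scaffold, averaged 672 ± 42.6 CPM in mtAsn-1 cells, 684 ± 23.7 CPM in mtAsn-2 cells, 657 ± 18.0 CPM in mtLys cells and 753 ± 11.97 CPM in control cells (SD, n = 3 each), and fell by 0.16, 0.14 and 0.20 on the log2 scale (edgeR adjusted p = 0.00201, 0.00711 and 0.00028). SETDB1, the methyltransferase, had log2 fold changes of 0.02, -0.06 and -0.01, none called. EHMT1, which methylates the same histone residue, rose to 99.1 ± 2.92 CPM in mtAsn-1 cells, 78.4 ± 0.67 CPM in mtAsn-2 cells and 98.3 ± 0.25 CPM in mtLys cells, against 60.2 ± 3.26 CPM in control cells (SD, n = 3 each). EHMT1 was called in each comparison, at log2 fold changes of 0.72, 0.38 and 0.71. CBX5, one of the heterochromatin proteins 1, rose by 0.48, 0.24 and 0.44 on the log2 scale. The other heterochromatin proteins 1 of the list are not described here. Single genes of the list, here and below, were named without a rule, so they do not stand for the list.

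TASOR, a subunit of the HUSH silencing complex, fell by 0.33 for the mtAsn-1 LNA, by 0.16 for mtAsn-2 and by 0.38 for mtLys. HDAC2, a histone deacetylase, fell by 0.65 with mtAsn-2 (102 ± 1.03 CPM, against 160.0 ± 3.62 CPM in control cells; SD, n = 3 each), with values of -0.06 and -0.08 with mtAsn-1 and mtLys that were not called. DNMT3B, a DNA methyltransferase, fell by 0.60 with mtAsn-2 and 0.33 with mtLys, while DNMT1, the maintenance methyltransferase, rose by 0.18 with mtAsn-1 and 0.17 with mtLys. In the direct comparisons, HDAC2 and EHMT1 were lower with mtAsn-2 than with mtLys, at log2 fold changes of -0.56 and -0.33.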

How the data were processed

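RNA of 12 MDA-MB-231 libraries was sequenced after a TruSeq RNA v2 preparation, per the labels' protocols. The authors deposited a table of unnormalised read counts, one line for each gene; the submitters' processing notes list STAR 2.6.0a, featureCounts, DESeq2 and the build hg38. Counting options for strand and for reads with several matches are not given in any label or header. Of 52897 lines, 38 were broken and were left out.

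Counts were filtered by group (minimum 10 reads, 15 in all) and scaled by TMM in edgeR 4.0.16 (R 4.3.3); CPM use the scaled library sizes. One quasi-likelihood fit of 12 libraries gave all comparisons, with Benjamini-Hochberg adjustment over 16051 genes and a threshold of 0.05. Standard errors were computed back from the fold change and the F statistic. Fits were tested on simulated data. Library totals limit precision for genes of few reads. Alternatives were RLE factors, DESeq2 1.42.0, other filters, a replicate block, pairs of groups alone, thinning and single libraries left out.

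Members and lists were chosen with earlier results of these data known. Named genes were, per comparison with control, the 6 largest rises and 6 largest falls (3 and 3 between tRNA LNAs) among members with an adjusted p below 0.05, a mean log2 CPM of 1 or more and separate groups, plus 8 genes with documented roles and the 5 highest per kilobase. The splits by fingers, shared words, overlap, promoter motif and level were set after the counts were seen. KRAB and finger patterns came from GENCODE 29 coding transcripts (262 of 263 genes matched), promoters from RefSeq. One marker of another cell type is not reported here.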

Additional observations from a re-analysis of the deposited data

How the results depend on the processing

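Against the control LNA, each count of genes that rose or fell stayed within 1.5 times its value under RLE factors, DESeq2, no filter, a stricter filter, a replicate block, pairs of groups alone, thinned libraries and every omission of 1 library. With single libraries left out, falls ran from 87 to 100 and rises from 6 to 9 with mtAsn-1, rises from 50 to 65 and falls from 31 to 39 with mtAsn-2, and falls from 88 to 107 and rises from 9 to 11 with mtLys. Between LNAs, genes lower with mtAsn-1 than mtAsn-2 ran from 102 to 112 and higher from 9 to 11, genes higher with mtAsn-2 than mtLys from 112 to 131 and lower from 9 to 12, and genes with any difference from 160 to 170. Of the counts between LNAs, only those of mtAsn-1 against mtLys moved by more than 1.5 times: 1 gene was higher with no filter, and 1 was lower with the 2 groups alone or with thinned libraries; omissions gave 0 to 1 higher and 1 to 2 lower. The cause was not tested. The shares of all tested genes under these settings are not given here, so the counts of the family cannot be set against them.

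Equal replicate numbers did not pair the libraries: correlations of their deviations ran from -0.099 to 0.042. With the replicate number as a block, 97 genes fell and 7 rose with mtAsn-1, 56 rose and 36 fell with mtAsn-2, and 99 fell and 11 rose with mtLys. The shares of all tested genes with that block are not given here. Among the named genes the block changed 1 call, that of ZNF224 with mtAsn-2 (-0.1939, adjusted p = 0.0555 by edgeR).

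Of the values for named genes, 1447 kept direction and call, 34 lost a call, 4 gained one and 16 changed sign, the 16 all in values that were not called. ZNF675 with mtAsn-2 became 0.0023 (RLE), 0.0242 (no filter), 0.0106 (2 groups alone) and 0.0733 (thinned), and ran from -0.1279 to 0.087 without single libraries. ZNF331 with mtAsn-1 became -0.0021 (stricter filter) and ran from -0.035 to 0.0337 without single libraries. In the same way ZNF358 with mtAsn-1 ran from -0.1198 to 0.0069, ZNF581 with mtAsn-1 from -0.1138 to 0.0016 and ZNF581 with mtAsn-2 from -0.0078 to 0.1108.

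Thinning all libraries to 17978825 reads gave 46 rises with mtAsn-2, against 59 at full depth. The share of all tested genes that rose after thinning is not given here. Genes not tested had too few reads for a statement on change.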
